A study of Mus musculus with 46 samples.

Results

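Genes of DNA replication and mitosis were followed through myocardial infarction in 2 inbred mouse strains, C57BL/6J and MRL/MpJ, using hearts of males aged 15 to 20 weeks. The set had 48 genes named by symbol, and every probe set that the platform annotation assigned to 1 of these symbols alone was taken. 47 of the 48 had such a probe set. Ccnb1, a mitotic cyclin, had none. The 47 genes were read by 98 probe sets, out of 12393 genes with a probe set of their own and 22626 tested probe sets. 12 of the 47 belong to DNA replication (the Mcm2 to Mcm7 helicase subunits, Cdc6, Pcna, Rrm1, Rrm2, Tyms and Tk1), 32 to mitosis, and 3 (Ccnd1, Ccnd2 and Cdk4) regulate the G1 phase that precedes replication.

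Day 0 hearts were healthy and had no surgery. In the other mice the left coronary artery was ligated under isoflurane, with buprenorphine for pain relief, and the heart was taken 1 or 5 days later. A biopsy punch separated the infarct with its border from the rest of the left ventricle, here called noninfarct tissue; on day 0 the infarct sample was the matching anterior and apical region of an uninjured heart. Each of the 12 groups of strain, day and region held 4 arrays, or 3 in the C57 day 0 groups, for 46 Affymetrix MOE430A arrays that the labels call biological replicates. MRL/MpJ is an inbred strain known for closing ear punch wounds; C57BL/6J is the comparison strain. No sham-operated group was analysed here, so the day 1 and day 5 groups differ from day 0 by surgery and drugs as well as by infarction. The tissue was not sorted, and in such bulk RNA more cells of a kind and more RNA per cell cannot be told apart.

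A cell that divides first licenses its DNA by loading the Mcm helicase with the help of Cdc6 and Cdt1, then copies it with Pcna as the sliding clamp, using nucleotides supplied by Rrm1, Rrm2, Tyms and Tk1. The mitosis genes are expressed later, in G2 and mitosis: cyclins A and B with Cdk1 drive entry, condensins and topoisomerase II shape the chromosomes, kinesins and Aurora kinases run the spindle, and the anaphase-promoting complex with Cdc20 and Ube2c ends the division. Adult cardiomyocytes rarely divide, and after an infarction inflammatory cells, fibroblasts and endothelial cells are known to enter the cycle.

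Textbook work ties certain promoter sequences to the timing of these classes. A CHR element (cell cycle gene homology region, TTTGAA) and the CCAAT box are known from genes of G2 and mitosis, and E2F sites (searched here as TTNNCGC) from genes of replication. The 250 bases before the transcription start were searched on both strands, in RefSeq promoters of the GRCm38.p6 build, for 39 of the 48 members: 27 of mitosis, 11 of replication and 1 of G1. TTTGAA stood in 11 of the 27 mitosis promoters (40.7%) and in 1 of the 11 replication promoters (9.09%), against 18.3% of the promoters of all 27025 genes in the table. CCAAT stood in 24 of 27 (88.9%) and 8 of 11 (72.7%), against 37.5% of all genes. TTNNCGC stood in 8 of 27 (29.6%) and 7 of 11 (63.6%), against 19.1%. CCAAT was thus frequent in both classes, and no difference between the classes was tested. A match is a string of letters and not a tested site, and several matches overlap one another. Shown here, to print the motifs in their setting, are the last 170 bases before the start for 4 mitosis genes and 2 replication genes with large rises on day 5. They are examples and do not stand for their classes: all 4 mitosis genes shown hold TTTGAA, which most of the 27 do not. Cks2, which rose more than Ccnb2, held CCAAT and neither of the other motifs in its 250 bases. Capitals mark these motifs. On the other strand TTTGAA reads as TTCAAA. The CCAAT box then reads as ATTGG, and the E2F-like motif as GCGNNAA.
Cdk1: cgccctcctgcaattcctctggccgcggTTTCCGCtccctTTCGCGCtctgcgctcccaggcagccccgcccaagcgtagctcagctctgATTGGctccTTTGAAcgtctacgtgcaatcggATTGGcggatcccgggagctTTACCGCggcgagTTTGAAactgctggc
Ccnb2: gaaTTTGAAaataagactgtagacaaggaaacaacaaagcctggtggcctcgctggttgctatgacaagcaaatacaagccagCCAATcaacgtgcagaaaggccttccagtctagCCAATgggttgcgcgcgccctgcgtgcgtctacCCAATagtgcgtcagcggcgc
Top2a: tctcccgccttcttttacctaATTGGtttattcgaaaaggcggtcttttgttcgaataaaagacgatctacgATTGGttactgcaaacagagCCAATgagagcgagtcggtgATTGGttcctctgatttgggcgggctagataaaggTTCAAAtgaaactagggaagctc
Ube2c: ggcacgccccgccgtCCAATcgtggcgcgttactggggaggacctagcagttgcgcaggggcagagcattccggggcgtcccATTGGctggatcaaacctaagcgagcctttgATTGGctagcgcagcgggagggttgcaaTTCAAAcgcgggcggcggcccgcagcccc
Mcm5: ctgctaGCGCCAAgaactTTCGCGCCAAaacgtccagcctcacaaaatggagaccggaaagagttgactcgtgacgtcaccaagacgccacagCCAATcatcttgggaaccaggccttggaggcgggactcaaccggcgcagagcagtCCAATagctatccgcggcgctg
Mcm6: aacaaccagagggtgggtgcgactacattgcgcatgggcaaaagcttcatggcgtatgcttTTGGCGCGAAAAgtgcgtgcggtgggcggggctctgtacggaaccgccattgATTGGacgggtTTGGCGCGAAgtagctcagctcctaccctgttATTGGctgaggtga
Cdk1 lies on the minus strand at chr10:69352913-69353082, Ccnb2 on the minus strand at chr9:70421555-70421724, Top2a on the minus strand at chr11:99024190-99024359 and Ube2c on the plus strand at chr2:164769759-164769928. Mcm5 lies on the plus strand at chr8:75109339-75109508 and Mcm6 on the minus strand at chr1:128359706-128359875. In these windows TTTGAA was found 2 times in Cdk1, 1 time each in Ccnb2, Top2a and Ube2c, and in neither Mcm5 nor Mcm6. TTNNCGC was found 3 times in Mcm5 and 5 times in Mcm6, and also 3 times in Cdk1. CCAAT was found in all 6, from 2 to 4 times.

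Levels are given as log2 of the intensity of the probe set with the highest mean, and changes as differences of group means on that scale with their standard error. A change was called at a limma adjusted p (Benjamini-Hochberg, over all tested probe sets) under 0.05. Shares of all probe sets are at this adjusted threshold. Member counts at an unadjusted p have no such share beside them, and some members pass that p by chance. Array medians lay between 4.22 and 4.48 on the log2 scale. Many of these genes start below that, near the background of the array, so that the size of their rise is not exact: in infarct tissue 24 of the 47 members had no day 0 array above its median, and 12 of the 42 that passed a filter on low values did so through day 5 arrays only. In noninfarct tissue these counts were 25, and 13 of 34.

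The values of 2 day 5 libraries went against both of their labels, strain and region. 42 probe sets were called different between the strains on day 0, by over 2 log2 units in both regions, and each array was placed on a scale where the C57 day 0 mean is 0 and the MRL day 0 mean is 1. By the median of these probe sets, the library labelled C57 day 5 noninfarct replicate 3 stood at 0.58. At -0.0020 stood the library labelled MRL day 5 infarct replicate 3. The other 21 C57 arrays ran from -0.17 to 0.078, the other 23 MRL arrays from 0.60 to 1.03, and the other 3 MRL day 5 infarct arrays from 0.60 to 0.67. On the first principal component of all arrays the first of these libraries stood at 92.3, where the other C57 day 5 noninfarct arrays were at -28.3, 21.2 and 32.3 and the other MRL day 5 infarct arrays at 98.9, 106 and 98.7. The second stood at 10.7. Whether the 2 samples were exchanged was not tested, and the labels were kept. The main day 5 counts of called members are also given without these libraries, as are some of the day 5 values. Unless stated, the other day 5 values rest on all arrays.

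On day 5 the mitosis and replication genes were higher in the infarct of both strains. In C57 infarct tissue 30 of the 47 members rose against day 0 and 2 fell, where 12.5% of all probe sets were called higher and 12.3% lower; 9 of 12 replication genes, 20 of 32 mitosis genes and 1 of 3 G1 genes rose. In MRL infarct tissue 30 rose and 1 fell, where 13.3% of all probe sets were called higher and 14.7% lower; 8 replication, 21 mitosis and 1 G1 gene rose. The median change of the mitosis genes was 1.94 in C57 and 1.87 in MRL, that of the replication genes 1.40 and 1.48, and that of all probe sets -0.10 in each strain. 28 genes rose in both strains. Without the 2 libraries the same 32 members were called in C57, and in MRL 32 rose and 1 fell, where 15.8% of all probe sets were higher and 16.2% lower; the MRL calls were those with all arrays plus Kif22 and Tpx2, and the MRL median for mitosis was 2.22. By the probe set of highest mean, Kif22 and Mcm4 were called in C57 only with all arrays and Kif11 and Plk1 in MRL only. No difference between the strains was called for these 4. A measure of RNA quality, the Gapdh 3′ minus 5′ probe set difference, had a mean of -0.18 on day 0 and 0.21 on day 5 in C57 infarct tissue, and of -0.25 and -0.09 in MRL. In noninfarct tissue it went from -0.15 to -0.06 and from -0.23 to -0.18. Its part in these changes was not tested.

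**Figure D1:**
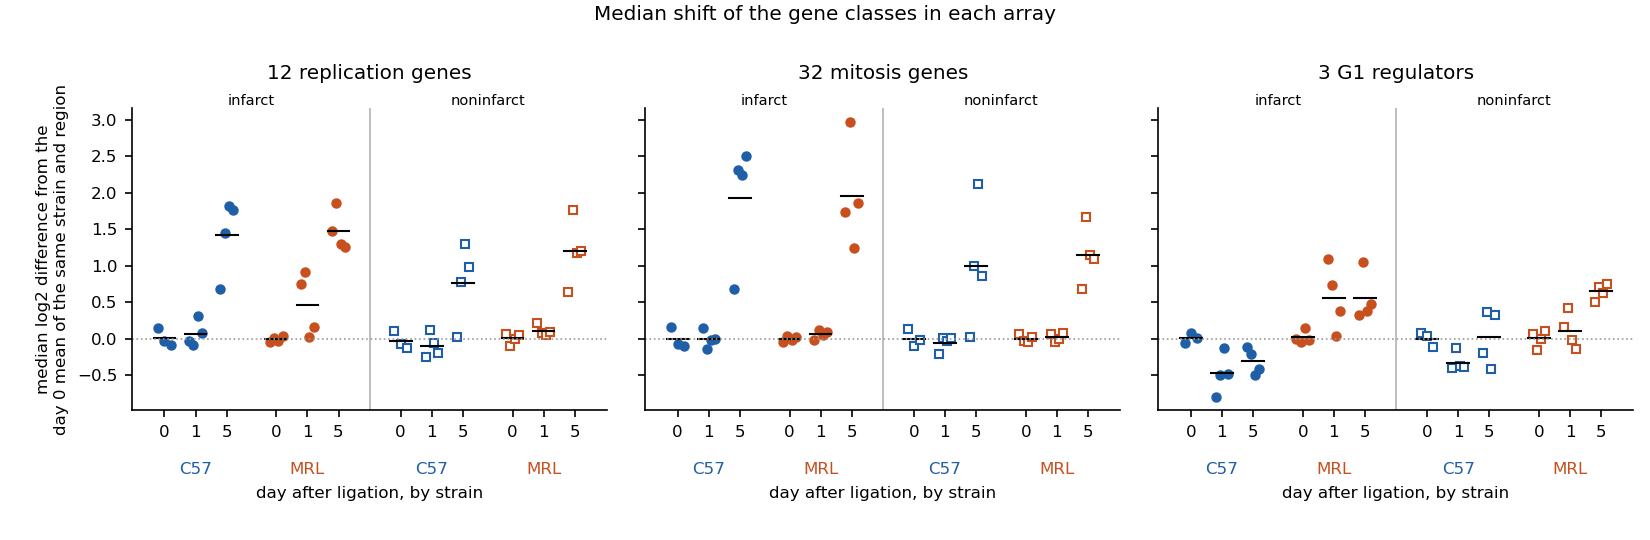
Median log2 shift of the 12 replication, 32 mitosis and 3 G1 genes in each of the 46 arrays, relative to the day 0 mean of the same strain and region (vertical axis, log2), by day (horizontal axis). Each point is 1 array, filled circles are infarct and open squares noninfarct tissue, blue is C57 and orange MRL, and black bars are group means; the day 5 infarct arrays sit between 0.68 and 2.98 for mitosis and between 0.68 and 1.86 for replication.

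Among the mitosis genes the largest rises on day 5 were those of Top2a, Ube2c, Birc5 and Cks2 in C57 and of Top2a, Ube2c, Birc5 and Ccna2 in MRL. Mki67, which codes for the Ki-67 antigen that coats mitotic chromosomes and is used to stain dividing cells, stood at 3.92, 3.39 and 3.63 in the 3 C57 day 0 infarct arrays and at 6.28, 8.54, 8.72 and 8.16 on day 5. In MRL it stood at 3.34, 3.43, 3.46 and 3.91 on day 0 and at 7.28, 8.83, 7.84 and 8.13 on day 5. Day 5 lay above day 0 in every array of both strains, and the change was 4.27 ± 0.52 in C57 (19.4-fold, adjusted p = 1.9e-05) and 4.49 ± 0.49 in MRL (22.4-fold, adjusted p = 3.6e-06).

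Top2a, topoisomerase II alpha, which untangles sister chromatids, was lowest at rest. Its day 0 values lay between 1.70 and 1.83 in the 7 infarct-region arrays of both strains. On day 5 C57 infarct arrays read 5.01, 7.45, 7.68 and 7.78 and MRL infarct arrays 6.66, 7.70, 6.88 and 6.83. The groups did not overlap, and the change was 5.22 ± 0.60 in C57 (adjusted p = 1e-05) and 5.28 ± 0.55 in MRL (adjusted p = 2.6e-06). With 32 added to every intensity before the logarithm, which damps changes from low values, these came to 2.24 and 2.20 and both were still called.

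Ube2c, the ubiquitin-conjugating enzyme of the anaphase-promoting complex, read 3.02, 2.75 and 2.62 in C57 on day 0 and 6.71, 8.28, 8.26 and 8.45 on day 5. In MRL it read 2.66, 2.68, 2.63 and 2.79 on day 0 and 8.09, 8.11, 7.76 and 7.70 on day 5. The change was 5.13 ± 0.40 (adjusted p = 1.7e-07) and 5.22 ± 0.37 (adjusted p = 3.2e-08), the smallest adjusted p of the 47 genes in each strain. Birc5, survivin of the chromosomal passenger complex, changed by 4.56 ± 0.56 and 4.90 ± 0.52, and Cks2, a subunit that binds Cdk1, by 4.43 ± 0.42 and 4.40 ± 0.39. Birc5 in C57 read 5.43 in replicate 1 and between 8.09 and 8.63 in the other 3 arrays, so that 1 heart region lay well below the rest of its group and still above day 0.

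The genes for entry into mitosis rose together in both strains, with 1 exception. Ccna2, cyclin A2, changed by 4.24 ± 0.48 in C57 and 4.53 ± 0.44 in MRL, Cdk1, the mitotic kinase, by 3.92 ± 0.54 and 4.46 ± 0.50, and Ccnb2, cyclin B2, by 3.09 ± 0.37 and 3.34 ± 0.35. Cks1b, the second Cks subunit, changed by 2.81 and 2.26. Foxm1, a transcription factor of G2 genes, was not called, at 0.15 and 0.32. In this group 5 of 6 genes rose in both strains.

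Of the genes for chromosome structure, Mki67, Top2a and Smc2, a condensin subunit (3.07 and 2.53), rose in both strains, and Cenpa, the histone H3 variant of the centromere, was not called (0.37 and -0.01). Of the 8 genes of kinetochore and checkpoint, 3 rose in both strains: Birc5, Bub1b (1.63 and 2.59), the checkpoint kinase BubR1, and Mad2l1 (1.92 and 1.73), which holds back the anaphase-promoting complex. Plk1, the Polo-like kinase, changed by 1.74 in MRL (adjusted p = 0.022) and by 1.48 in C57 (adjusted p = 0.074). Without MRL day 5 infarct replicate 1 or 2 its call was lost (adjusted p = 0.098 and 0.087).

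The partners of the anaphase-promoting complex rose in both strains, all 3 of them: Ube2c, its activator Cdc20 (2.84 ± 0.49 and 3.19 ± 0.45), and Cdca3 (2.99 and 2.58), a protein it degrades. Of the 11 genes of spindle and cytokinesis 5 rose in both strains: Stmn1, stathmin, which destabilises microtubules (2.63 in each strain), Aurka, the Aurora A kinase of the spindle poles (2.48 and 1.95), Racgap1 of the central spindle (2.20 and 2.26), the kinesin Kif20a (1.42 and 1.57) and Prc1, which bundles microtubules of the midzone (1.25 and 1.29). Kif22, a chromosome-bound kinesin, changed by 1.34 (adjusted p = 0.008) in C57 tissue and 0.76 (adjusted p = 0.083) in MRL. The other probe sets of Kif22 disagreed: some were called in both strains and others in neither. Kif11, the kinesin Eg5, changed by 0.55 (adjusted p = 0.12) and 0.68 (adjusted p = 0.037), and its MRL call was lost without any 1 array of the comparison other than day 5 replicate 3 (adjusted p between 0.053 and 0.13).

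Among the replication genes the largest rises were those of the helicase subunits Mcm7, Mcm5 and Mcm6 in C57, and of Mcm7, Mcm5 and the nucleotide enzyme Rrm2 in MRL. Mcm5 read 2.54, 2.19 and 2.18 in C57 day 0 infarct arrays and 3.46, 5.90, 6.00 and 5.73 on day 5. In MRL it read 2.37, 2.09, 2.00 and 2.22 on day 0 and 5.33, 7.14, 5.13 and 5.92 on day 5. The groups did not overlap, with a change of 2.97 ± 0.72 in C57 (adjusted p = 0.0059) and 3.71 ± 0.67 in MRL (adjusted p = 0.00052).

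Mcm6 started well above the array medians, at 6.04, 5.27 and 5.74 in C57 and at 5.70, 5.44, 5.79 and 5.70 in MRL on day 0. On day 5 it read 7.26, 8.88, 8.91 and 8.75 in C57 and 8.49, 8.79, 7.73 and 8.45 in MRL. Every day 5 array lay above every day 0 array, with a change of 2.76 ± 0.55 (6.79-fold, adjusted p = 0.0016) and 2.71 ± 0.51 (6.53-fold, adjusted p = 0.00073). Mcm7 changed by 3.23 ± 0.92 (adjusted p = 0.015) and 3.87 ± 0.85 (adjusted p = 0.0023); without C57 day 0 infarct replicate 1 the C57 value was 3.09 with an adjusted p of 0.055. Mcm3 changed by 0.80 ± 0.28 (adjusted p = 0.047) and 0.97 ± 0.26 (adjusted p = 0.0094), and Mcm4 by 1.22 ± 0.42 (adjusted p = 0.04) and 1.03 ± 0.39 (adjusted p = 0.054). The C57 call of Mcm3 was lost without day 0 replicate 2 or 3 or day 5 replicate 1, 2 or 4, with adjusted p between 0.06 and 0.16. That of Mcm4 was lost without any 1 of the day 0 arrays or day 5 replicate 2, 3 or 4, with adjusted p between 0.077 and 0.11.

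Pcna, the sliding clamp of the DNA polymerases, was well expressed throughout. It read 8.76, 9.28 and 8.90 in C57 on day 0 and 9.57, 10.30, 10.32 and 10.42 on day 5, and in MRL 8.84, 8.92, 9.05 and 8.99 on day 0 and 10.26, 10.81, 9.94 and 10.18 on day 5. Its change was 1.17 ± 0.28 (2.25-fold, adjusted p = 0.0049) and 1.34 ± 0.26 (2.54-fold, adjusted p = 0.00081), with no overlap in either strain.

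The nucleotide enzymes rose with 1 exception. Rrm2, the regulated subunit of ribonucleotide reductase, read 4.55, 4.46 and 4.15 in C57 day 0 infarct arrays and 5.30, 7.56, 8.00 and 7.30 on day 5, and 4.31, 4.50, 4.19 and 4.47 in MRL on day 0 and 6.67, 7.95, 6.34 and 7.53 on day 5. That is a change of 2.65 ± 0.49 (adjusted p = 0.00094) and 2.75 ± 0.46 (adjusted p = 0.00025). Its partner Rrm1 changed by 1.58 ± 0.24 and 1.62 ± 0.22, and thymidine kinase Tk1 by 1.79 ± 0.44 (adjusted p = 0.0065) and 2.59 ± 0.41 (adjusted p = 0.00017). Tyms, thymidylate synthase, was at -0.33 (adjusted p = 0.14) and -0.31 (adjusted p = 0.13).

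Of the 3 G1 genes only Cdk4, the kinase that cyclin D activates, rose in infarct tissue on day 5. It read 7.36, 7.51 and 7.45 in C57 day 0 infarct arrays and 7.95, 8.94, 8.94 and 9.06 on day 5. In MRL the 4 day 0 arrays read between 7.47 and 7.48 and the day 5 arrays 9.15, 9.24, 7.85 and 9.09. The change was 1.29 ± 0.37 (adjusted p = 0.017) and 1.36 ± 0.34 (adjusted p = 0.006), and the C57 call was lost without day 0 replicate 1 (1.24, adjusted p = 0.056) or day 5 replicate 4 (1.17, adjusted p = 0.053).

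Ccnd1 and Ccnd2, the cyclins D1 and D2, did not rise with the replication genes. Ccnd1 was at -0.35 ± 0.36 in C57 (adjusted p = 0.44) and 0.78 ± 0.34 in MRL (adjusted p = 0.092), and its groups overlapped in both strains. Ccnd2 was well expressed on day 0, at 10.01, 10.23 and 9.96 in C57, and fell by 0.56 ± 0.18 on day 5 (adjusted p = 0.032), while in MRL it was at -0.18 (adjusted p = 0.38). The C57 fall was not called without day 0 replicate 1 or 2 (adjusted p = 0.065 and 0.11) or day 5 replicate 2 or 3 (adjusted p = 0.11 and 0.088).

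**Figure D2:**
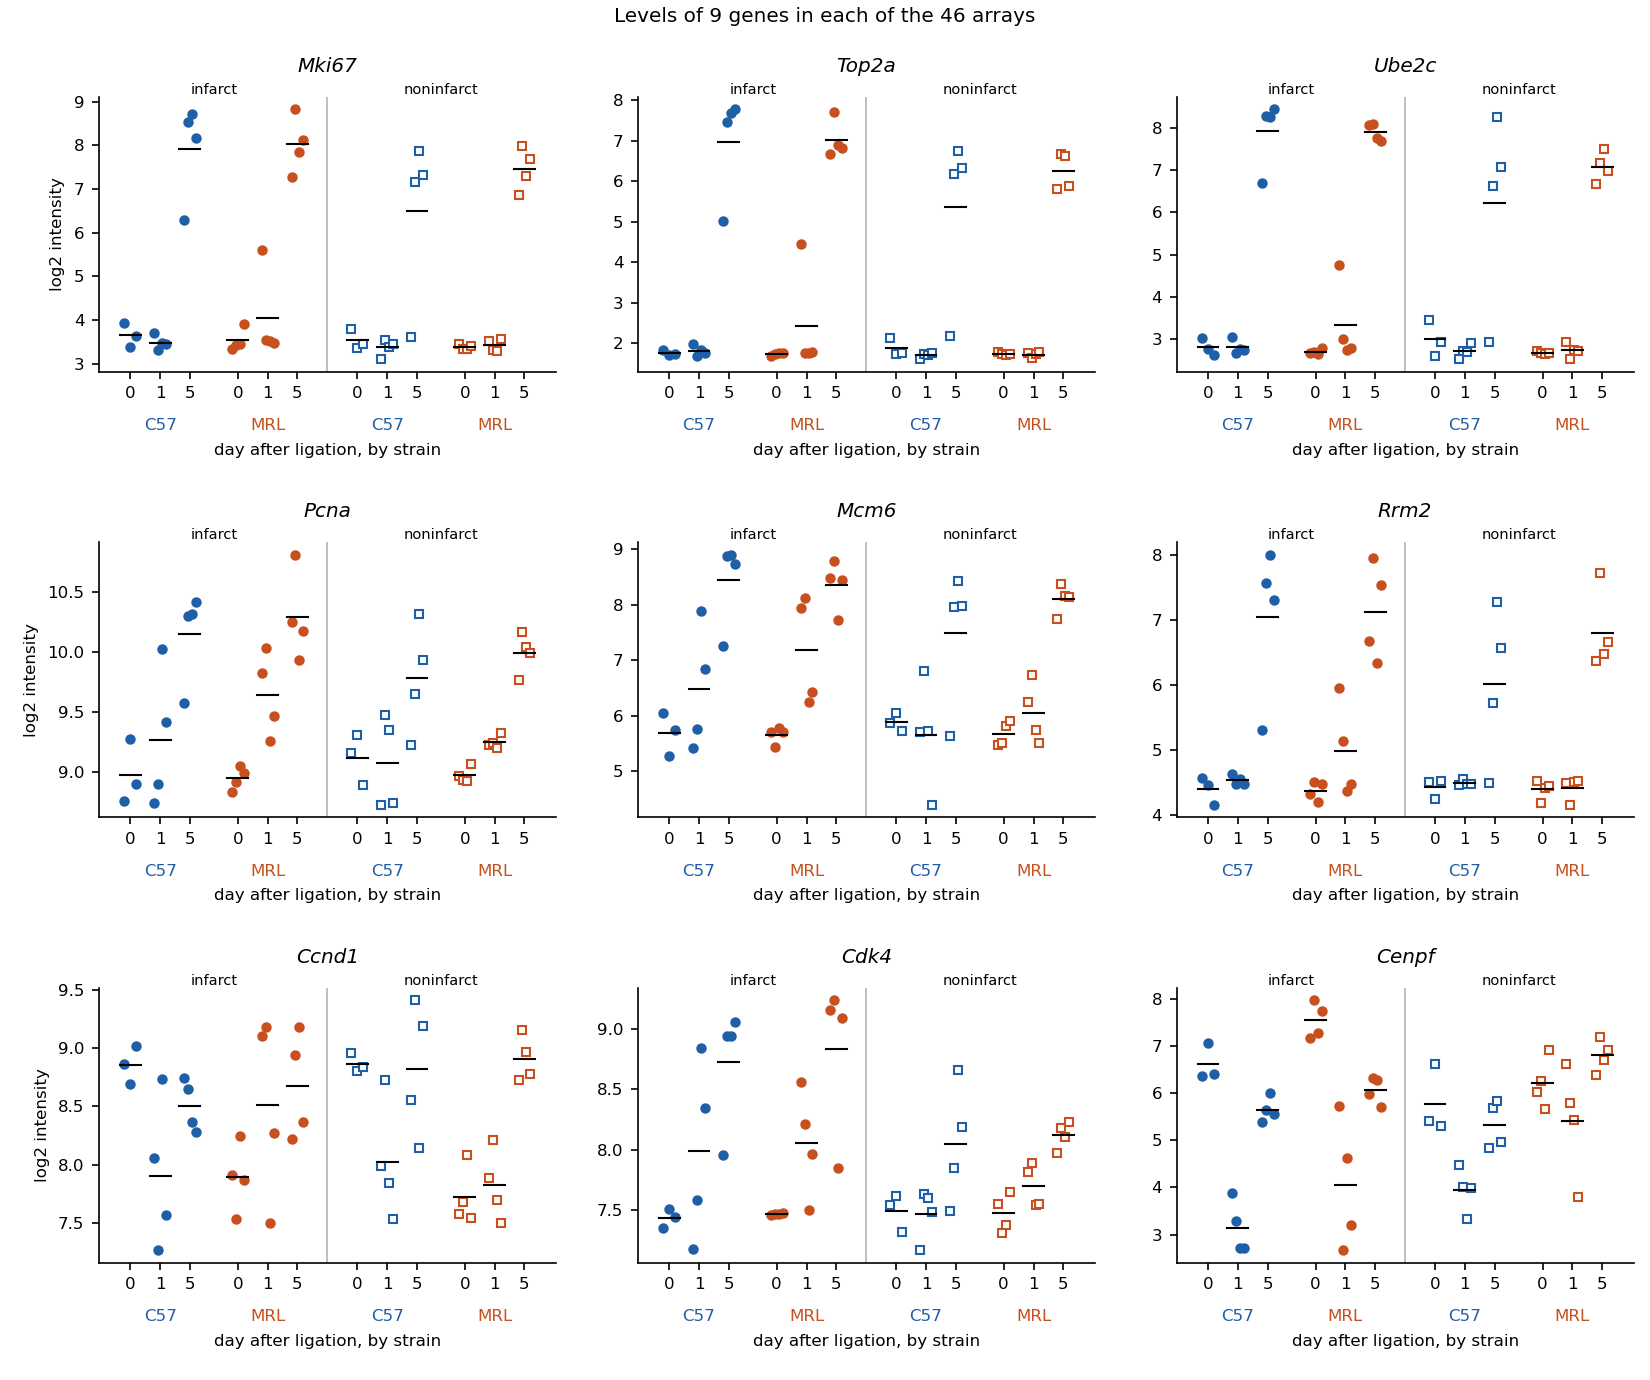
log2 intensity (vertical axis) of Mki67, Top2a, Ube2c, Pcna, Mcm6, Rrm2, Ccnd1, Cdk4 and Cenpf in each of the 46 arrays, by day (horizontal axis), with 1 point for each array, filled circles for infarct and open squares for noninfarct tissue, blue for C57 and orange for MRL. Mki67, Top2a and Ube2c lie near their day 0 level on day 1 and above it on day 5, Ccnd1 starts lower in MRL, and Cenpf drops on day 1. The exceptions are MRL day 1 infarct replicate 1, at 5.61, 4.45 and 4.75 for the first 3 genes, and C57 day 5 noninfarct replicate 1, whose Mki67 at 3.61 lies within the day 0 range.

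By the probe set of highest mean, 12 of the 47 genes were called in neither strain on day 5 in the infarct. They were Cdc6, Mcm2 and Tyms of replication, Ccnd1, and Aurkb, Bub1, Cenpa, Cenpe, Foxm1, Hmmr, Kif4 and Tpx2 of mitosis. Their changes ran from -0.35 (Ccnd1 in C57) to 1.95 (Tpx2 in C57, ± 0.78, adjusted p = 0.075). Tpx2, which targets Aurora A to the spindle, was at 1.79 ± 0.72 in MRL (adjusted p = 0.074), so it missed the threshold with a change as large as that of called genes. Hmmr, a spindle and hyaluronan-binding protein, was at 0.49 and 0.64, and Cdc6, which loads the helicase, at 0.35 and 0.00. Aurkb, the Aurora B kinase, was at -0.25 and -0.11, Bub1, a checkpoint kinase, at -0.24 and -0.17, the kinetochore kinesin Cenpe at 0.04 and 0.14, and the chromosome kinesin Kif4 at 0.21 and -0.04.

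For some of these genes another probe set read differently. Mcm2 was at -0.04 and 0.15 with the probe set of highest mean, and at 2.19 ± 0.55 (adjusted p = 0.0071) and 2.14 ± 0.51 (adjusted p = 0.0039) with probe set 1448777_at. That probe set read between 3.26 and 3.34 in C57 day 0 arrays and 3.73, 6.06, 6.24 and 5.96 on day 5, and between 3.25 and 3.42 in MRL on day 0 and between 4.86 and 5.88 on day 5. Nusap1, a spindle protein, fell by 0.30 ± 0.11 in C57 (adjusted p = 0.046) with the probe set of highest mean, while probe set 1416309_at rose by 1.34 (adjusted p = 0.027) in C57 and 1.31 (adjusted p = 0.017) in MRL. The first of these Nusap1 readings lies under the array medians and lost its call without C57 day 0 infarct replicate 1 (-0.19, adjusted p = 0.29) or 2 (-0.35, adjusted p = 0.051) or day 5 infarct replicate 2, 3 or 4 (adjusted p between 0.075 and 0.12). A second Bub1 probe set, 1424046_at, was at 1.32 (adjusted p = 0.09) and 1.48 (adjusted p = 0.039).

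The reverse was also seen: for several genes that rose, 1 probe set stayed near 0. Top2a probe set 1427724_at was at -0.08 and -0.12, Stmn1 probe set 1448113_at at 0.26 and 0.24, and Cdc20 probe set 1439394_x_at at 0.29 and 0.11 where 1416664_at was at 3.09 and 3.32. Mcm3, Mcm7 and Cdca3 also had some probe sets called in both strains and others in neither. Of the 47 members 18 had 1 probe set and 29 had 2 or more, up to 7 for Ccnd2. Counting a gene as soon as any of its probe sets was called higher gave 32 genes in C57 and 36 in MRL infarct tissue. Not every gene added in MRL by this count is named here.

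**Figure D3:**
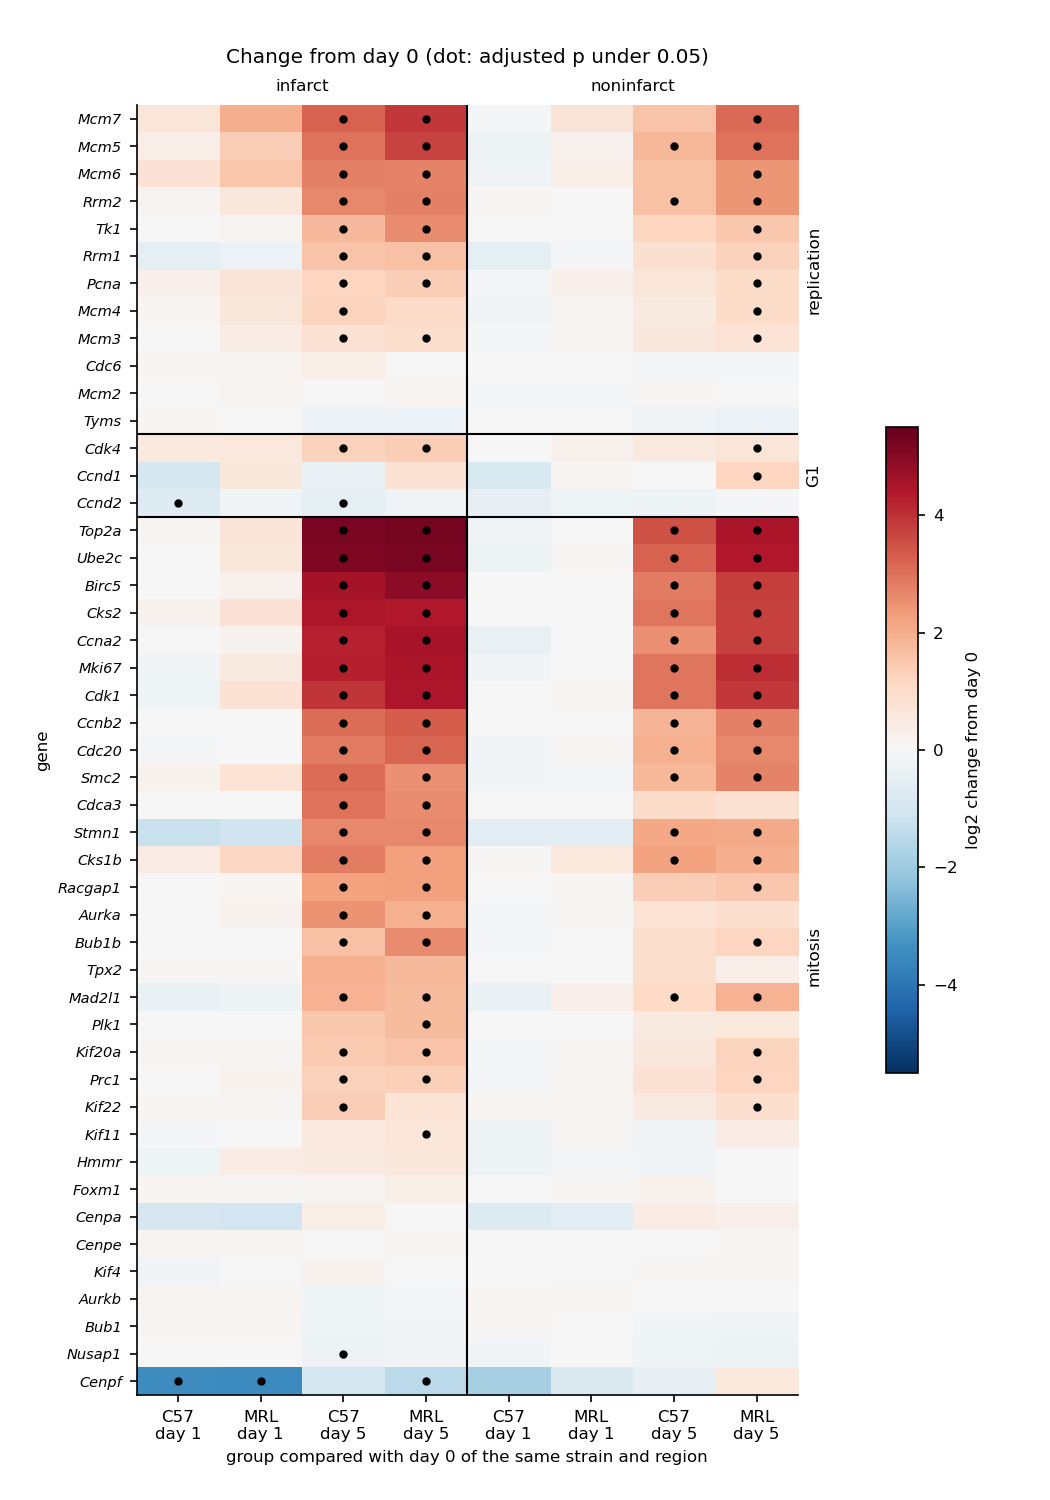
log2 change against day 0 (colour scale, red higher and blue lower) of the 47 genes (rows, grouped as replication, mitosis and G1) in the 8 comparisons of strain, region and day (columns); a dot marks an adjusted p under 0.05. The day 1 columns hold 3 dots, all for falls in infarct tissue, and the day 5 columns hold most of the others.

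On day 1 limma called no replication or mitosis gene higher in either strain by its probe set of highest mean. Counting any probe set, 1 member was called higher and 1 lower in MRL infarct tissue. In C57 infarct tissue 0 members were called higher by limma and 2 lower, where 4.76% of all probe sets were higher and 2.93% lower; 0 were higher and 5 lower at an unadjusted p under 0.05. In MRL infarct tissue 0 were higher and 1 lower, where 4.94% were higher and 4.93% lower; 4 were higher and 3 lower at an unadjusted p under 0.05. The mitosis genes had a median change of 0.02 in C57 and 0.09 in MRL on day 1. The replication genes had a median change of 0.11 in C57 and 0.50 in MRL, and the difference between the strains was not called for any of them.

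The gene that fell on day 1 in the infarct of both strains was Cenpf, a large kinetochore protein that also binds microtubules outside mitosis. It read 6.38, 7.07 and 6.40 in C57 day 0 infarct arrays and 3.88, 3.30, 2.71 and 2.71 on day 1, and in MRL 7.18, 7.97, 7.29 and 7.74 on day 0 and 5.73, 2.67, 4.63 and 3.20 on day 1. The C57 fall was -3.46 ± 0.50 (adjusted p = 0.00025) and the MRL fall -3.49 ± 0.46 (adjusted p = 9.6e-05), with no overlap. Another Cenpf probe set, 1452334_at, was near 0 on day 1 (0.03 in C57 and 0.01 in MRL).

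Cenpf was thus above the array medians in the uninjured heart, unlike most mitosis genes of the set. From day 1 to day 5 it rose again, by 2.50 ± 0.46 (adjusted p = 0.001) in C57 tissue and 2.02 ± 0.46 in MRL (adjusted p = 0.0067). Against day 0 the day 5 change was -1.47 ± 0.46 in MRL, a fall (adjusted p = 0.023), and -0.97 ± 0.50 in C57 (adjusted p = 0.15). The MRL call was lost without day 0 replicate 2 or 4 or day 5 replicate 1 or 4 (adjusted p between 0.053 and 0.067). Of 12 cardiomyocyte markers limma called 0 in the infarct on day 1 (at an unadjusted p under 0.05, 2 in C57 and 0 in MRL), with a median change of -0.36 in C57 and -0.23 in MRL; their part in the Cenpf values was not tested.

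The other fall on day 1 was that of Ccnd2 in C57 infarct tissue, by 0.71 ± 0.18 (adjusted p = 0.021), from 10.01, 10.23 and 9.96 to 9.05, 9.57, 9.21 and 9.58. It was not called without day 0 replicate 1 or 2 (adjusted p = 0.055 and 0.11) or day 1 replicate 1 or 3 (adjusted p = 0.052 and 0.063), and with those arrays left out the count of C57 members was 1. Among the replication genes higher on day 1 in MRL without reaching the threshold were Mcm6 at 1.53 ± 0.51 (adjusted p = 0.065), Pcna at 0.70 ± 0.26 (adjusted p = 0.097) and Mcm7 at 2.00 ± 0.85 (adjusted p = 0.16). MRL day 1 Mcm6 read 7.94, 8.13, 6.24 and 6.43, all above the day 0 arrays, and 2 of the 4 arrays reached the day 5 range. Without MRL day 1 infarct replicate 3 Mcm6 was called (1.85, adjusted p = 0.034), as was a fall of Cenpa (-1.55, adjusted p = 0.0086), for 3 called members; without replicate 1 Stmn1 was called as a fall (-1.46, adjusted p = 0.028), for 2.

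MRL day 1 infarct replicate 1 was high for some mitosis genes and not for the class. Mki67 read 5.61 there and between 3.48 and 3.56 in the other 3 arrays, Top2a 4.45 against 1.75 to 1.78, and Ube2c 4.75 against 2.74 to 2.99. Its median shift over the 32 mitosis genes was -0.02, the lowest of the 4 arrays (0.11, 0.05 and 0.09 in the others). The median shift of the replication genes in the 4 MRL day 1 infarct arrays was 0.75, 0.92, 0.03 and 0.16, so replicates 1 and 2 stood above the others. The macrophage markers shifted by 1.17, 1.54, 0.09 and 0.92 in these arrays.

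By the medians of the mitosis and replication genes, most of the rise came between day 1 and day 5. In MRL the changes of Mcm6, Mcm7 and Pcna up to day 1 were at least as large as those after it. In C57 infarct tissue 34 members were higher on day 5 than on day 1 and 3 lower (Tyms, Nusap1 and Bub1), where 11.4% of all probe sets were higher and 24.6% lower; 9 replication and 25 mitosis genes were higher. In MRL 25 were higher and 1 lower (Bub1), where 9.56% were higher and 14.9% lower; 4 replication genes (Rrm1, Rrm2, Mcm5 and Tk1) and 21 mitosis genes were higher. Another probe set was called higher in the same comparison for Nusap1 in C57 and for Bub1 in MRL. Mcm3 in C57 also had probe sets called in each direction. The probe sets of highest mean of Nusap1 and Bub1 were above the array median on 0 infarct arrays. The median change was 2.22 in C57 and 1.77 in MRL for mitosis and 1.44 and 0.91 for replication, and -0.13 and -0.12 for all probe sets. Among the genes called in C57 and not in MRL were Mcm6 (1.97 ± 0.51 in C57; 1.18 in MRL, adjusted p = 0.084), Mcm7 (2.55 ± 0.85; 1.87, adjusted p = 0.097) and Pcna (0.88 ± 0.26; 0.65, adjusted p = 0.066). These 3 were named above for higher day 1 values in MRL, and their difference between the strains was not called. They were not alone in this: the MRL mean of Mcm5 was 2.17 on day 0 and 3.51 on day 1, and Mcm5 was called from day 1 to day 5. In C57 the calls of Mcm7 and Pcna were lost without day 1 replicate 1 (1.67 and 0.70, adjusted p = 0.13 and 0.077) and without day 5 replicate 2 or 4, and that of Mcm7 also without day 5 replicate 3 (adjusted p between 0.054 and 0.084). Without the library labelled MRL day 5 infarct replicate 3, and that of the C57 noninfarct group, 28 members were higher and 1 lower in MRL, Pcna, Cdk4 and Tpx2 being added; the C57 calls were the same. The MRL call of Mcm5 (2.36 ± 0.67, adjusted p = 0.022) was lost without day 1 replicate 3 or 4 or day 5 replicate 2 or 4 (adjusted p between 0.054 and 0.074).

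Stmn1 traced a dip and a rise in C57 infarct tissue, of which the rise was called. It read 7.18, 6.75 and 6.65 on day 0, 5.91, 5.98, 5.06 and 5.58 on day 1, and 8.33, 10.08, 9.77 and 9.78 on day 5. The day 1 change was -1.23 (adjusted p = 0.12), and the rise from day 1 to day 5 was 3.86 ± 0.43 (adjusted p = 5.3e-06). The MRL rise from day 1 was 3.72 ± 0.43 (adjusted p = 1e-05).

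In noninfarct tissue mitosis and replication genes also rose on day 5, with fewer calls in C57 than in MRL. In C57 noninfarct tissue 15 members rose against day 0 and 0 fell, where 4.86% of all probe sets were higher and 3.14% lower; 2 were replication genes (Mcm5 and Rrm2) and 13 mitosis genes, and 29 were higher at an unadjusted p under 0.05. In MRL noninfarct tissue 29 rose and 0 fell, where 8.19% were higher and 5.29% lower; 9 were replication, 18 mitosis and 2 G1 genes. All 15 genes that rose in C57 also rose in MRL, and in the infarct of both strains. The median change was 0.98 in C57 and 1.19 in MRL for mitosis, 0.76 and 1.14 for replication, and -0.06 and -0.09 for all probe sets.

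Of the C57 calls 11 were kept without the 2 libraries, where 2.74% of all probe sets were higher; Mcm5 (1.36, adjusted p = 0.055), Rrm2 (1.17, adjusted p = 0.083), Ccna2 (1.95, adjusted p = 0.13) and Mad2l1 (0.83, adjusted p = 0.13) were lost, so that no replication gene was called. The C57 medians were then 0.51 for mitosis and 0.62 for replication. In MRL 32 rose without them, where 10.8% of all probe sets were higher, with Aurka, Cdca3 and Plk1 added.

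The C57 noninfarct count depended on single arrays. Without day 5 replicate 1 it was 28, without day 0 replicate 2 it was 7, and without day 0 replicate 3 it was 6. The share of all probe sets in these fits is not given here. Day 5 replicate 1 showed almost none of the rise: Mki67 read 3.61, 7.17, 7.88 and 7.32 in the 4 day 5 arrays and 3.81, 3.37 and 3.45 on day 0, and Top2a read 2.19, 6.19, 6.74 and 6.34 on day 5. The Mki67 groups overlapped through that array, with a change of 2.95 ± 0.62 (adjusted p = 0.0097), and of 2.49 (adjusted p = 0.029) without the 2 libraries. In MRL Mki67 read 6.86, 7.99, 7.30 and 7.69 on day 5 and between 3.33 and 3.45 on day 0, a change of 4.08 ± 0.58 (adjusted p = 0.00022) with no overlap.

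Top2a changed by 3.49 ± 0.67 in C57 noninfarct tissue (adjusted p = 0.0058; 3.03 and 0.017 without the 2 libraries) and by 4.49 ± 0.62 in MRL (adjusted p = 0.00018). Ube2c changed by 3.24 ± 0.73 (adjusted p = 0.013) and 4.42 ± 0.67 (adjusted p = 0.00039), and the C57 call was lost without day 0 replicate 2 or 3 (adjusted p = 0.051 and 0.053). Cdk1 changed by 2.94 ± 0.60 and 3.90 ± 0.55, Cks2 by 2.93 ± 0.61 and 3.76 ± 0.57, and Stmn1 by 2.14 ± 0.39 and 2.10 ± 0.36. Without the 2 libraries the C57 changes were 2.56 for Ube2c, 2.38 for Cdk1, 2.41 for Cks2 and 1.91 for Stmn1, all still called.

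Of the replication genes Mcm5 and Rrm2 passed in both strains with all arrays. Mcm5 read 2.50, 4.67, 5.62 and 4.10 in the C57 day 5 noninfarct arrays and 4.37, 5.73, 5.07 and 5.06 in those of MRL, with day 0 values between 1.95 and 2.50. It changed by 1.83 ± 0.45 (adjusted p = 0.021) and 2.98 ± 0.42 (adjusted p = 0.0002). Rrm2 changed by 1.59 ± 0.42 (adjusted p = 0.029) and 2.41 ± 0.39 (adjusted p = 0.00062). The C57 calls of both were lost without any 1 of the day 0 arrays or day 5 replicate 3, and that of Rrm2 also without day 5 replicate 4, with adjusted p between 0.053 and 0.085.

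7 further replication genes were called in MRL noninfarct tissue and not in C57. Among them Mcm6 changed by 2.43 (adjusted p = 0.0034; 1.62 and 0.067 in C57), Pcna by 1.02 (adjusted p = 0.0018; 0.66 and 0.054), Rrm1 by 1.26 (adjusted p = 0.0032; 0.87 and 0.056), Tk1 by 1.48 (adjusted p = 0.017; 1.17 and 0.09 in C57) and Mcm7 by 3.10 ± 0.83 (adjusted p = 0.019; 1.58 and 0.31). The MRL calls of Mcm7 (2.97, adjusted p = 0.061) and Tk1 (1.19, adjusted p = 0.077) were lost without day 5 replicate 2, and that of Mcm7 also without day 0 replicate 1 (2.66, adjusted p = 0.068). With all arrays the C57 adjusted p of the first 4 lay between 0.054 and 0.09. Without the 2 libraries that went against their labels they were further from the threshold. The C57 changes were then 1.31 for Mcm6 (adjusted p = 0.22), 0.48 for Pcna (0.18), 0.86 for Rrm1 (0.12) and 0.66 for Tk1 (0.27). None of these genes differed between the strains in its response at an adjusted p under 0.05.

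Cdk4 and Ccnd1 were the G1 genes that rose in MRL noninfarct tissue. Ccnd1 read 7.58, 7.68, 8.08 and 7.55 on day 0 and 8.72, 9.16, 8.97 and 8.78 on day 5, a change of 1.18 ± 0.25 (adjusted p = 0.005) with no overlap. In C57 it read 8.96, 8.80 and 8.83 on day 0 and 8.55, 9.41, 8.14 and 9.19 on day 5 (-0.04, adjusted p = 0.93), so the day 5 values of the strains lay together and the day 0 values apart. Cdk4 changed by 0.65 ± 0.18 in MRL (adjusted p = 0.021), a call lost without day 0 replicate 2 or 3 or day 5 replicate 2 or 4 (adjusted p between 0.051 and 0.063).

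On day 1 in noninfarct tissue limma called 0 members in either strain, where 1.03% of all probe sets were higher and 0.455% lower in C57 and 0.252% and 0.115% in MRL. At an unadjusted p under 0.05, 4 were lower in C57, 1 was lower in MRL and 0 were higher. Cenpf in C57 was at -1.83 ± 0.50 (adjusted p = 0.081): its arrays read 4.47, 4.02, 3.33 and 3.99 against 5.41, 6.63 and 5.30 on day 0, with no overlap. From day 1 to day 5, 24 members rose and 0 fell in each strain, where 5.31% of probe sets were higher and 4.41% lower in C57 and 4.57% and 2.62% in MRL. Without the 2 libraries 18 rose in C57, 17 of them among the 24, and 32 in MRL, where 3.42% and 7.27% of probe sets were higher. Without MRL day 5 noninfarct replicate 2 the MRL count was 17.

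Between the strains, limma called 0 of the 47 genes on any day in either region, with all arrays and the probe set of highest mean. The share of all probe sets called was also small. In infarct tissue 0.393% were higher and 0.243% lower in MRL on day 0, 0.15% and 0.261% on day 1, and 0.0619% and 0.239% on day 5. In noninfarct tissue the shares were 0.508% and 0.429% on day 0, 0.628% and 0.53% on day 1, and 0.424% and 0.208% on day 5. At an unadjusted p under 0.05 the infarct had 2 members lower in MRL on day 0 (Ccnd1 and Ccnd2), 0 in either direction on day 1, and 1 higher (Bub1b) and 2 lower (Kif22 and Cdc6) on day 5. The share of all probe sets at that unadjusted p is not given here, so these counts are not read as a difference.

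On day 0 Ccnd1 and Ccnd2 had lower means in MRL in both regions, without a call for the probe set of highest mean in the fit of all arrays. Ccnd1 stood at 8.86, 8.69 and 9.02 in C57 infarct-region arrays and at 7.91, 7.54, 8.25 and 7.87 in MRL, a difference of -0.96 ± 0.36 (adjusted p = 0.585). In noninfarct tissue the difference was -1.14 ± 0.27 (adjusted p = 0.056). Without the 2 day 5 libraries that went against their labels, Ccnd1 was called lower in MRL noninfarct tissue on day 0. The groups did not overlap in either region. Another Ccnd1 probe set, 1448698_at, was called lower in MRL on day 0, by -1.89 ± 0.42 in the infarct region (adjusted p = 0.044) and -1.50 ± 0.24 in noninfarct tissue (adjusted p = 0.0024), again without overlap.

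Ccnd2 on day 0 differed by -0.43 ± 0.18 in the infarct region (adjusted p = 0.789) and -0.54 ± 0.16 in noninfarct tissue (adjusted p = 0.163), with no overlap in either. Its probe set 1448229_s_at was called lower in MRL noninfarct tissue on every day, by -2.25 ± 0.33 on day 0 (adjusted p = 0.00095), -2.06 ± 0.31 on day 1 (adjusted p = 0.0009) and -1.91 ± 0.31 on day 5 (adjusted p = 0.004). In MRL this probe set stood at 3.93, 3.86 and 3.93 on the 3 days, below the array medians, and in C57 at 6.18, 5.92 and 5.84. In MRL day 5 infarct arrays it read 3.38, 4.06, 7.31 and 4.21, and in C57 day 5 noninfarct arrays 6.04, 6.02, 4.71 and 6.58; the third value of each is that of a library that went against its labels.

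On day 5 in the infarct limma called no difference between the strains, with or without the 2 libraries. The median difference of MRL from C57 was 0.02 for replication (6 of 12 genes above 0) and -0.01 for mitosis (15 of 32 above 0); without the 2 libraries it was 0.14 (8 of 12) and 0.12 (21 of 32), with 2 members higher and 0 lower at an unadjusted p under 0.05. Mki67 differed by 0.10 (95% interval -0.92 to 1.11), Top2a by 0.04 (-1.12 to 1.20) and Ube2c by -0.01 (-0.79 to 0.77). Of the replication genes Mcm6 differed by -0.08 (-1.15 to 0.99), Rrm2 by 0.08 (-0.88 to 1.04), Pcna by 0.14 (-0.39 to 0.68) and Mcm5 by 0.61 (-0.80 to 2.01). With 4 arrays a group these intervals leave room for differences of about 1 log2 unit in most of these genes, so equal levels are not shown. The member that was higher in MRL at an unadjusted p under 0.05, Bub1b, differed by 0.92 ± 0.31 (adjusted p = 0.5).

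The array that held the C57 infarct group apart mattered for this comparison. C57 day 5 infarct replicate 1 had a median mitosis shift of 0.68, where the other 3 had 2.24 to 2.51. Without it 2 members were called lower in MRL: Cdc20 by -0.55 (adjusted p = 0.01) and Aurka by -0.999 (adjusted p = 0.028). With all arrays Cdc20 was at 0.23, so its sign turned.

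**Figure D4:**
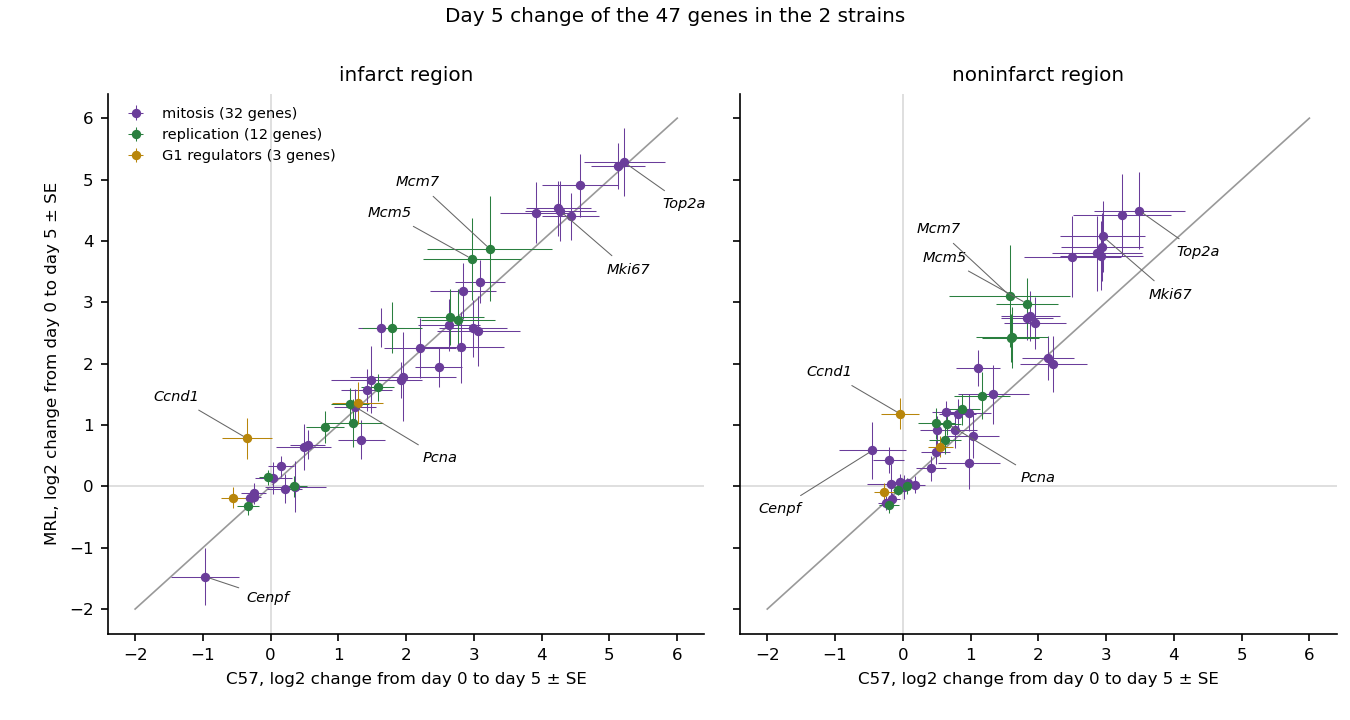
Day 5 change against day 0 in C57 (horizontal axis, log2) and in MRL (vertical axis, log2) for each of the 47 genes, in infarct and noninfarct tissue (separate panels), coloured by class, with standard errors as bars and a diagonal of equal change. Infarct points lie along the diagonal, with Top2a at 5.22 and 5.28, and most noninfarct points lie above it, with Top2a at 3.49 and 4.49.

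In noninfarct tissue on day 5 most members were higher in MRL, without a call. The median difference was 0.25 for replication (9 of 12 above 0) and 0.21 for mitosis (24 of 32 above 0). Mki67 differed by 0.97 (95% interval -0.24 to 2.18; adjusted p = 0.41), Top2a by 0.88 (-0.43 to 2.18), Mcm5 by 0.84 (-0.04 to 1.72; adjusted p = 0.40) and Rrm2 by 0.79 (-0.03 to 1.61). Cenpf stood at 6.39, 7.18, 6.71 and 6.92 in MRL and 4.84, 5.68, 5.83 and 4.97 in C57 (1.47 ± 0.46, adjusted p = 0.231), with no overlap. Without the 2 libraries the median was 0.42 for replication (9 of 12) and 0.57 for mitosis (27 of 32), Mki67 differed by 1.43 and Top2a by 1.33. limma then still called 0 members, where 1.14% of all probe sets were called higher and 0.782% lower. At an unadjusted p under 0.05, 18 members were higher and 1 lower. The share of all probe sets at that unadjusted p is not given here, so these 2 counts cannot be set against the shares above. The low C57 replicate 1 enters all of these differences, and the genes are not independent of one another.

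A strain-by-infarction term, which sets the MRL change against the C57 change, also gave 0 called members with limma in each region and on each day. Over all probe sets it called 0.00884% higher and 0.0442% lower on day 1 and 0.0221% and 0.0972% on day 5 in infarct tissue, and 0.00884% higher and 0 lower on each day in noninfarct tissue. At an unadjusted p under 0.05 it found Ccnd1 and Ccnd2 on day 1 and Ccnd1 on day 5 in the infarct, and Ccnd1 on day 1 and Ccnd1 and Kif20a on day 5 in noninfarct tissue. Ccnd1 had a larger change in MRL, by 1.57 ± 0.50 on day 1 and 1.13 ± 0.50 on day 5 in the infarct and by 1.22 ± 0.37 on day 5 in noninfarct tissue (adjusted p = 1.00), values that rest on the same day 0 arrays as the lower day 0 level in MRL. Without the 2 libraries it again called 0 members on day 5, with 1 and 13 at an unadjusted p under 0.05 in infarct and noninfarct tissue. For Mki67 the day 5 value was 0.21 (95% interval -1.29 to 1.71) in the infarct and 1.13 (-0.66 to 2.91) in noninfarct tissue.

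Between the regions of 1 strain, the number of members called on day 5 turned on the 2 libraries whose values went against their labels. With all arrays, on day 5 in C57 2 members were higher in the infarct than in noninfarct tissue, Aurka and Cdca3, where 1.85% of all probe sets were higher, and 22 were higher at an unadjusted p under 0.05. Aurka differed by 1.67 ± 0.32 (adjusted p = 0.0025) and Cdca3 by 1.96 ± 0.43 (adjusted p = 0.009), and the groups overlapped for both. On day 5 in MRL 3 members were higher, where 2.43% of probe sets were: Bub1b by 1.36 ± 0.31 (adjusted p = 0.011), Cdca3 by 1.77 ± 0.43 (adjusted p = 0.014) and Aurka by 1.04 ± 0.32 (adjusted p = 0.041). Bub1b in MRL read 4.34, 5.49, 4.22 and 5.90 in the infarct and 3.07, 4.13, 3.59 and 3.69 in noninfarct tissue, with no overlap.

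Without the 2 libraries 23 members were higher in the C57 infarct and 9 in the MRL infarct, where 9.78% and 10.6% of all probe sets were. In C57 Ube2c differed by 2.38 (adjusted p = 0.0015), Top2a by 2.07 (adjusted p = 0.019), Mki67 by 1.89 (adjusted p = 0.016) and Rrm2 by 1.45 (adjusted p = 0.014), which with all arrays were not called. In MRL Mki67 was at 0.62 (adjusted p = 0.63) and Top2a at 0.82 (adjusted p = 0.50), and Bub1b, Cdca3 and Aurka stayed called at 1.62, 1.81 and 1.20. With the replicate number as a block and all arrays, the counts were 17 in C57 and 10 in MRL. Same-numbered day 5 arrays did not all deviate together (correlations from 0.0023 to 0.755 in C57 and from 0.0054 to 0.434 in MRL), so the numbers were not taken as pairs there.

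With all arrays the direction was shared by most members: 39 of 47 in C57 and 40 of 47 in MRL were above 0, all 12 replication genes in MRL among them, with a median of 0.95 and 0.55 for mitosis and 0.52 and 0.26 for replication. These counts of calls turned on single arrays. In C57 the count was 25 without infarct replicate 1, 20 without noninfarct replicate 3, and 1 without noninfarct replicate 1 or infarct replicate 2 or 4. In MRL it was 8 without infarct replicate 3, 1 without infarct replicate 4 and 0 without infarct replicate 2. The share of all probe sets in these fits is not given here. Without the 2 libraries the share of all probe sets rose along with the member counts in both strains. The called part of the 47 members was then above that share in each strain, by more in C57 than in MRL. No test set the members against all probe sets. The MRL call of Aurka was lost without any 1 of its 8 arrays other than infarct replicate 3 and noninfarct replicate 2 (adjusted p between 0.073 and 0.22), and the C57 call of Cdca3 without infarct replicate 2, 3 or 4 or noninfarct replicate 1 (adjusted p between 0.053 and 0.095).

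On day 0 and day 1 limma called 0 members between the regions, where 0% of all probe sets were higher in C57 and 0.00442% in MRL on day 0 and 1.94% and 1.9% on day 1. At an unadjusted p under 0.05, 1 member was higher in MRL on day 0 (Cenpf), 3 were higher and 1 lower in MRL on day 1, and 0 in C57 on either day. In the C57 day 0 groups same-numbered arrays deviated together (correlations of 0.233 to 0.475 over 3 pairs), and with that number as a block the count stayed at 0. In the MRL day 1 groups same-numbered infarct and noninfarct arrays deviated together (correlations of 0.290 to 0.542 over 4 pairs). With that number as a block Cenpf was called lower in the infarct, by -1.36 (adjusted p = 0.0082; 0.098 without the block).

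Other genes of the pathway, from lists that hold no member, moved with the members in part. Of 35 other replication genes in the day 5 infarct, 11 were higher in C57 (31.4%) and 13 in MRL (37.1%), beside 12.5% and 13.3% of all probe sets, and 2 were lower in each strain. Cdt1, which loads the helicase with Cdc6, changed by 3.99 ± 0.85 (adjusted p = 0.0026) and 4.36 ± 0.79 (adjusted p = 0.00053), Uhrf1, which keeps DNA methylation through replication, by 2.77 (adjusted p = 0.026) and 3.29 (adjusted p = 0.0047), and DNA ligase Lig1 by 1.71 (adjusted p = 0.046) and 2.20 (adjusted p = 0.0062). Of 33 other genes of mitosis, 12 were higher in C57 (36.4%) and 14 in MRL (42.4%), and 1 was lower, in C57. Anln, anillin of the cleavage furrow, changed by 3.92 and 3.88, the kinase Pbk by 2.95 and 2.49, and Cep55 of the midbody by 2.47 and 2.76.

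Of 12 other G1 and S entry genes 1 rose in the C57 infarct and 3 in that of MRL on day 5 (8.33% and 25.0%), and of 6 inhibitors of cyclin-dependent kinases 2 and 3 did, with 1 lower in MRL, beside the same 12.5% and 13.3%. In noninfarct tissue, where 4.86% and 8.19% of all probe sets were higher, 3 and 7 of the other replication genes, 2 and 7 of the other mitosis genes, 1 and 2 of the S entry genes and 0 and 1 of the inhibitors rose in C57 and MRL on day 5.

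Macrophage and fibroblast markers rose in the day 5 infarct groups in which the cycle genes rose, and cardiomyocyte markers fell. On day 5 in the infarct 10 of 11 macrophage markers were called higher in each strain, as were 8 and 9 of 9 fibroblast markers in C57 and MRL, while 10 and 11 of 12 cardiomyocyte markers were lower. Of 8 smooth muscle and pericyte markers 4 and 5 were higher (1 lower in C57), and of 9 neutrophil markers 2 and 3 were. Of 9 endothelial markers 1 was higher in each strain, with 2 lower in C57 and 1 in MRL, and of 8 lymphocyte markers 0 were higher and 1 lower in each strain by limma (0 and 2 at an unadjusted p under 0.05). The summed macrophage intensity ran from 1093 to 1207 on day 0 and from 7479 to 17570 on day 5 in C57, and from 690.0 to 863.9 and from 3258 to 18393 in MRL. The summed cardiomyocyte intensity ran from 285322 to 292454 on day 0 and from 112521 to 227820 on day 5 in C57, and from 263239 to 292619 and from 76390 to 253058 in MRL. Of the lymphocyte markers Cd3e, Cd3g, Cd3d and Cd8a were above the array median on 0 of the 46 arrays, Cd79a and Cd79b on 1 each, Cd4 on 12 and Ms4a1 on 37.

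Single arrays of the day 5 groups differed in their marker levels. C57 day 5 infarct replicate 1, with a mitosis shift of 0.68, had a macrophage shift of 2.45 and a cardiomyocyte shift of -0.40, where the other 3 arrays had macrophage shifts of 3.36 to 3.49 and cardiomyocyte shifts of -1.68 to -1.24. C57 day 5 noninfarct replicate 1 had 0.02 for mitosis, 0.64 for macrophages and -0.05 for cardiomyocytes, and the library labelled replicate 3 of that group 2.12, 2.95 and -1.31. In MRL the infarct library labelled day 5 replicate 3 had 1.24, 1.92 and -0.08. The order of the mitosis and macrophage values was not always the same: MRL day 5 infarct replicate 2 had 2.98 for mitosis and 3.59 for macrophages, where replicates 1 and 4 had 1.74 and 1.85 for mitosis and 3.83 and 3.72 for macrophages. The part of the cell makeup of each sample in the changes of the cycle genes was not tested.

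**Figure D5:**
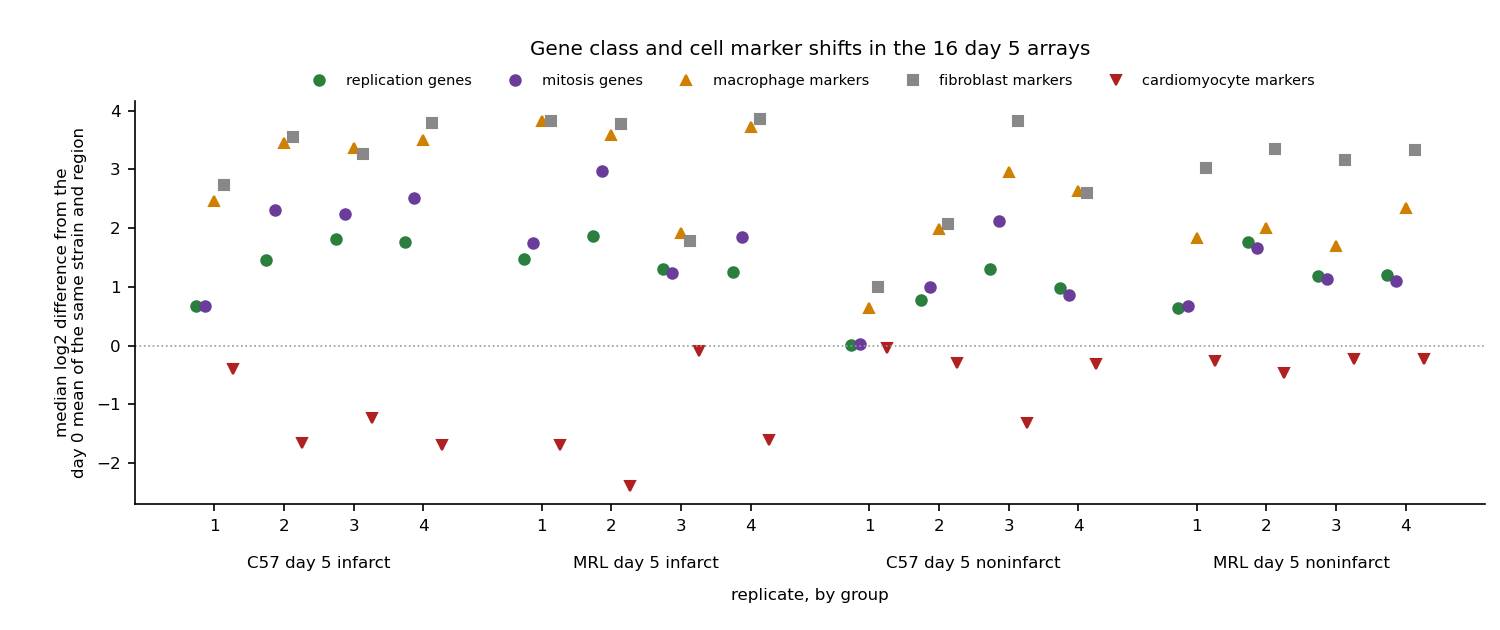
Median log2 shift against day 0 (vertical axis) of the replication, mitosis, macrophage, fibroblast and cardiomyocyte genes in the 16 day 5 arrays. The horizontal axis gives the replicate within each group of strain and region. Each array has 1 point for each gene list, and colour and marker shape tell the lists apart. The C57 noninfarct array with a mitosis shift of 0.02 has a macrophage shift of 0.64 and a cardiomyocyte shift of -0.05; 2 arrays have a mitosis shift of 0.68, a C57 infarct array with macrophage and cardiomyocyte shifts of 2.45 and -0.40 and an MRL noninfarct array with 1.83 and -0.27.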

How the data were processed

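The deposited table holds 1 linear intensity for each probe set and array. The submitters' processing notes name GCRMA, without a version, as what the authors used to correct, normalize and summarise the probes. The log2 of these deposited values was taken with no pseudocount (smallest value 1.03). The 64 control probe sets of the 22690 were not used. The platform annotation gave 20380 probe sets exactly 1 symbol, 691 several and 1555 none, and 20351 matched RefSeq gene records by Entrez ID.

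The fit used limma 3.58.1 (R 4.3.3; linear model with empirical Bayes, two-sided tests, Benjamini-Hochberg) on all 22626 probe sets, with no filter on low values: 23 arrays per region, or all 46 arrays for infarct minus noninfarct, with 1 mean per group, for 28 comparisons. Comparisons with the same day 0 arrays share their deviations. Of a gene's probe sets, the one with the highest mean over the 46 arrays stands for it; setting levels of different probe sets side by side says nothing about transcript amounts. The labels of 2 day 5 libraries whose values went against them were kept. Array precision is limited by the number of arrays.

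The members, gene lists and alternatives were chosen with earlier results of these data known. Named were the index genes Mki67, Top2a, Pcna, Ccnd1 and Cdk4, the 4 largest day 5 rises per class called in both strains, every member called lower or called between strains, up to 4 called members per class elsewhere, members whose probe sets disagreed, members not called on day 5, and the 3 largest rises of each pathway list. Members of each functional group beyond these are given for completeness. Which arrays of different regions share a heart is not in the labels. Within a region, deviations of same-numbered arrays correlated between -0.45 and 0.42, so the numbers were not taken as pairs. The fit was tested on simulated data. Alternatives were another normalization, an offset of 32, a filter on low values (above the array median in at least 3 arrays), trend and robust settings, other samples in the fit, a replicate block, any probe set of a gene, and arrays left out. Promoter sequences are from RefSeq (GRCm38.p6).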

Additional observations from a re-analysis of the deposited data

Results flagged for a closer look

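In groups of 4 arrays, 180 combinations of a group and a gene or class median were tested for 1 array far from the others, and 24 had one by Dixon's criterion at 95%, which chance alone meets in about 1 in 20 groups. The genes share arrays, so these are not 24 separate findings.

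C57 day 5 infarct replicate 1 was the lowest of its group for 9 of the values. Its median mitosis shift was 0.68, where the others ran from 2.24 to 2.51. Birc5 read 5.43 (others 8.09 to 8.63), Top2a 5.01 (7.45 to 7.78) and Ube2c 6.71 (8.26 to 8.45). Of the replication genes Mcm5 read 3.46 (5.73 to 6.00), Mcm6 7.26 (8.75 to 8.91), Mcm7 7.19 (9.19 to 9.21) and Pcna 9.57 (10.30 to 10.42), and Cdk4 read 7.95 (8.94 to 9.06). All of these values lay above the C57 day 0 infarct arrays.

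C57 day 5 noninfarct replicate 1 was lowest for Mki67 at 3.61 (others 7.17 to 7.88), Top2a at 2.19 (6.19 to 6.74) and Mcm6 at 5.64 (7.97 to 8.42), values within or next to the day 0 range. MRL day 1 infarct replicate 1 was highest for Mki67 at 5.61 (3.48 to 3.56), Top2a at 4.45 (1.75 to 1.78), Ube2c at 4.75 (2.74 to 2.99) and Birc5 at 3.64 (3.09 to 3.10). Mcm5 was highest in C57 day 1 infarct replicate 3 at 4.21 (2.06 to 2.29). Cdk4 was lowest in the library labelled MRL day 5 infarct replicate 3, whose values went against its labels, at 7.85 (9.09 to 9.24), and Birc5 was highest in MRL day 5 noninfarct replicate 2 at 7.71 (6.35 to 6.58).

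The other 5 gaps were small. Ccnd2 was highest in MRL day 0 infarct replicate 3 at 9.79 (9.58 to 9.60) and lowest in C57 day 1 noninfarct replicate 2 at 9.48 (9.65 to 9.68), and the G1 median shift in the same C57 array was highest at -0.14 (-0.41 to -0.38). Rrm2 was lowest in MRL day 1 noninfarct replicate 2 at 4.15 (4.48 to 4.52), and Top2a in MRL day 0 infarct replicate 1 at 1.70 (1.75 to 1.76).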

How the results depend on the processing

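Median centring and quantile normalization left the count of called members within 1.5 times of the main one in every comparison. Of 226 member results called, 43 lost their call in at least 1 of the alternatives other than leaving out 1 array; Top2a, Mki67, Ube2c, Mcm5, Mcm6, Rrm2 and Pcna kept theirs for day 5 against day 0 in the infarct of both strains under every alternative. The counts of called members that moved were these. MRL day 1 against day 0 in the infarct (1) gave 2 with the filter on low values, 4 with all 46 arrays in 1 fit, 2 without the 3 libraries that stood apart (the libraries labelled C57 day 5 noninfarct replicate 3 and MRL day 5 infarct replicate 3, whose values went against both labels, and C57 day 5 infarct replicate 1) and 2 with any probe set. C57 day 1 against day 0 in noninfarct tissue (0) gave 1 with the filter. Between strains (0), day 0 in the infarct region and days 1 and 5 in noninfarct tissue gave 1 each with any probe set, and day 5 in the infarct gave 2 without the 3 libraries. Day 0 in noninfarct tissue gave 1 with the filter, with trend and robust settings, without the first 2 of these libraries, without the 3, and with the replicate block, and 2 with any probe set. Between regions on day 5, C57 (2) gave 7 with the filter, 4 with the offset, 0 with the arrays of that strain and day alone, 23 without the 2 libraries, 29 without the 3 and 17 with the replicate block. MRL (3) gave 0, 9, 11 and 10 under the last 4 of these settings in turn and 5 with any probe set, and MRL day 1 (0) gave 1 with the block. The replicate block moved no other count by over 1.5 times, and within a region the replicate numbers are only names. Cdc20 between strains on day 5 in the infarct (0.23) reversed to -0.55 without C57 day 5 infarct replicate 1 and to -0.47 without the 3 libraries (adjusted p = 0.01 in each); with 1 array left out at a time it ran from -0.55 to 0.51. The cause of these shifts was not tested, beyond the number of probe sets adjusted over or of arrays fitted.

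With 1 array left out at a time the counts ran as follows, with no share of all probe sets beside them. For day 1 against day 0 they ran from 1 to 2 in C57 infarct, 1 to 3 in MRL infarct and 0 to 1 in C57 noninfarct tissue (1 without day 1 replicate 2). For day 5 against day 0 they ran from 28 to 34 and 29 to 33 in C57 and MRL infarct and from 6 to 28 and 22 to 29 in noninfarct tissue. For day 5 against day 1 they ran from 26 to 37 and 21 to 29 in the infarct and from 18 to 33 and 17 to 25 in noninfarct tissue. Between strains they ran from 0 to 2 on day 5 in the infarct and from 0 to 1 on day 1 in noninfarct tissue (Cenpf, without MRL day 1 noninfarct replicate 4). Between regions they ran from 1 to 25 in C57 and 0 to 8 in MRL on day 5 and from 0 to 1 in MRL on day 1. All other counts stayed at 0. Levels under the array medians limit the size of many rises, and 3 or 4 arrays a group limit the precision.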

Other observations

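Among the regulators of the cycle that are not members, Cdkn1a and Myc had larger changes on day 1 than on day 5. Cdkn1a, the p21 inhibitor of cyclin-dependent kinases, rose in the infarct on day 1, by 4.04 (adjusted p = 1.5e-05) in C57 tissue and 2.40 (adjusted p = 0.0011) in MRL tissue, and was at 2.18 and 1.24 on day 5. Myc, a transcription factor that promotes growth and entry into S phase, rose by 3.97 (adjusted p = 0.00064) and 4.44 (adjusted p = 9e-05) on day 1 and was at 2.20 and 1.66 on day 5. Cdkn2c, the p18 inhibitor of Cdk4, was at -0.72 and -0.43 on day 1 and rose by 1.45 (adjusted p = 0.00089) and 2.06 (adjusted p = 1.1e-05) on day 5. Cdkn1c, the p57 inhibitor, fell by 1.23 in MRL on day 5 (adjusted p = 0.012) and was at -0.80 in C57.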
